A study of Mus musculus with 12 samples.

Results

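The cyclin-dependent kinase (CDK) inhibitor genes of the mouse liver were followed through 7 transcripts, Cdkn1a, Cdkn1b, Cdkn2a, Cdkn2b, Cdkn2c, Cdkn2d and Cdkn3. They were chosen by name, as the rows of the deposited count matrix whose Entrez identifier belongs to one of these symbols, and all 7 were found among 26301 genes. Liver RNA was sequenced from 12 adult mice in 3 groups of 4. The control livers came from wild-type mice matched for age, and the tumors arose spontaneously in ageing mice of an end-of-life study, in mice without E2f7 and E2f8 in hepatocytes (double knockout, DKO) or without E2f7, E2f8 and Rb1 (triple knockout, TKO). Both knockout groups carried Alb-Cre, in which the albumin promoter drives the recombinase in hepatocytes, so that endothelial, immune and stellate cells of the same tissue piece kept intact alleles. The mice were bred into FVB. Tumor tissue and gene deletion came together in both knockout groups, and their parts in a difference from control cannot be told apart.

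CDK inhibitors hold back the kinases that drive cells from G1 into S phase. The INK4 proteins, p16INK4a (Cdkn2a), p15INK4b (Cdkn2b), p18INK4c (Cdkn2c) and p19INK4d (Cdkn2d), bind CDK4 and CDK6 and keep D-type cyclins from activating them, which leaves RB unphosphorylated and bound to E2F. The CIP/KIP proteins p21 (Cdkn1a) and p27 (Cdkn1b) inhibit cyclin E and cyclin A complexes of CDK2 and also help to assemble cyclin D with CDK4, and p21 is the classical p53 target. Cdkn3 is named with them but belongs to neither family: it encodes a phosphatase (KAP) that removes the activating phosphate of CDK2 and CDK1, and it is known as a gene expressed in dividing cells. The third CIP/KIP gene, Cdkn1c (p57), was not among the 7 and is given below for comparison.

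To show the promoters behind the values, the 250 bases before the annotated start are printed for the 3 genes that were highest in tumors relative to control livers, and for both starts of Cdkn2a, whose proteins come from different first exons. Sequences and starts are RefSeq's on GRCm38.p6, each read 5′ to 3′ on the gene's own strand. Capitals mark exact matches, on either strand, to the E2F site (TTTCCCGC, TTTGGCGC, TTTCGCGC or TTTGCCGC), the cell cycle homology region or CHR (TTTGAA or TTTAAA), the GC box that SP1 binds (GGGCGG) or the TATA box (TATAAA).
Cdkn1a, second of 2 windows, chr17:29093519-29093768, plus strand: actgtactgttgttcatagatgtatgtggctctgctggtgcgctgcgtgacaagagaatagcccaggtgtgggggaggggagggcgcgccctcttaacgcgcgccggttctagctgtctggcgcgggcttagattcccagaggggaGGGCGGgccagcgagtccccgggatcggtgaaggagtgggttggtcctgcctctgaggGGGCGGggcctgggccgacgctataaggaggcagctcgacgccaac
Cdkn2c, first of 2 windows, chr4:109666757-109667006, minus strand: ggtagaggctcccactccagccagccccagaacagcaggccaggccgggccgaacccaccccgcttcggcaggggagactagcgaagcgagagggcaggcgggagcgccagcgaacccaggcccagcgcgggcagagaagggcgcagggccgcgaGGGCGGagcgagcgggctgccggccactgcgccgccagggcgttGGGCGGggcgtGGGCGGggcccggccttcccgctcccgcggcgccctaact
Cdkn3, chr14:46760291-46760540, plus strand: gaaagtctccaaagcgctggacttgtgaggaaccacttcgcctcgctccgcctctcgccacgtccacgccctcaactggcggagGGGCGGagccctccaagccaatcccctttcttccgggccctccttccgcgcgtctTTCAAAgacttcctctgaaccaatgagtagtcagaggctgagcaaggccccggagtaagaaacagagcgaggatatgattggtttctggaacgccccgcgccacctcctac
Cdkn2a, distal start (p19ARF), chr4:89294620-89294869, minus strand: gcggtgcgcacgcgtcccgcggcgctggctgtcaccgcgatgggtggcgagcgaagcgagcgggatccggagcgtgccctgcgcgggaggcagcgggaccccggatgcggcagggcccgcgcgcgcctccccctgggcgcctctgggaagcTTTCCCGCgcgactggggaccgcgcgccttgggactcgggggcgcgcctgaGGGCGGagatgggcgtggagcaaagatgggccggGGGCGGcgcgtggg
Cdkn2a, proximal start (p16INK4a), chr4:89282193-89282442, minus strand: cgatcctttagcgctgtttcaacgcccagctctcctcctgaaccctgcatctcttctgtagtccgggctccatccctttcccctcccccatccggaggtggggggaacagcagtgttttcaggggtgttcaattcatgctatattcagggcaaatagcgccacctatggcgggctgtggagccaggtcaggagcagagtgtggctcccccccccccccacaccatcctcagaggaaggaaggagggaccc

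Among 32851 mouse promoter windows of this length, 1.86% held one of the E2F matches, 25.2% a CHR match, 32.7% a GC box and 12.4% a TATA box. The Cdkn1a window held 2 GC boxes, beginning 104 and 46 bases before the start, and no E2F or CHR match. The Cdkn2c window held 3 GC boxes, 95, 51 and 40 bases before the start, and likewise no E2F or CHR match. The distal Cdkn2a window had an E2F match (TTTCCCGC) 99 bases before the start, and the proximal one held none of the 4 motifs. Cdkn3 had a CHR match, TTTGAA read on the other strand as TTCAAA, 111 bases before the start and a GC box 166 bases before it. Among the genes whose windows are not printed, Cdkn1b and Cdkn2d also had GC boxes before the start. Cdkn1b and Cdkn2b had CHR matches there. GC boxes and CHR matches were thus not confined to the genes that were highest in tumors. The other window of Cdkn1a and that of Cdkn2c, also not printed, held none of the 4 motifs. All these matches describe letters in the windows and not bound sites.

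Each library held between 9165812 and 16424973 counted reads, and values are CPM, counts relative to the library's total after scaling by edgeR's TMM factors. Of the 3 deleted genes, Rb1 was at 4.45 ± 0.975 CPM in TKO tumors (mean ± SD, n = 4), below each of the DKO tumors (8.99 ± 1.52) and each of the control livers (8.28 ± 1.75), and DESeq2 called it lower than in both (adjusted p = 0.00731 against DKO and 0.00991 against control), whereas edgeR's quasi-likelihood test did not (adjusted p = 0.281 and 0.122). E2f8 (20.5 ± 17.2 in DKO, 26.1 ± 18.5 in TKO and 6.23 ± 1.92 CPM in control) and E2f7 (1.15 ± 0.716, 0.802 ± 0.0878 and 0.811 ± 0.239) had no lower mean in DKO tumors, and counts over whole genes do not show whether a deleted exon was read. DESeq2 called E2f8 higher than in control livers in both tumor groups, and edgeR called it in neither. All 10 hepatocyte markers were present in all groups, with summed levels of 90720 to 148766 CPM in control livers, 133050 to 315316 in DKO and 62418 to 236678 in TKO tumors. Albumin made up most of these sums, and 6 of the 10 had negative log2 fold changes in DKO tumors (median −0.51) and 7 in TKO tumors (median −0.17), none called by edgeR. Markers of macrophages (medians of 475, 272 and 336 CPM in control, DKO and TKO), lymphocytes (19.8, 11.5 and 15.6), endothelium (152, 168 and 189), stellate cells and fibroblasts (362, 230 and 351) and bile ducts (35.6, 53.6 and 37.2) were also detected, none of them at 0 through a group. DESeq2 called the endothelial markers Pecam1 and Lyve1 higher and the hepatocyte marker Ttr lower in DKO tumors. In TKO tumors it called no marker, and edgeR called none in either group. The part of these cell types in the results was not tested, and in such bulk tissue fewer cells of a type cannot be told apart from less RNA per cell.

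Cdkn1a, Cdkn2c and Cdkn3 stood above every control liver in every one of the 8 tumors, and Cdkn1b, Cdkn2a, Cdkn2b and Cdkn2d did not. Of all genes tested, 8.85% lay wholly above the control livers in DKO tumors, 4.38% in TKO tumors and 2.19% in all 8 tumors together. Cdkn3 was among the genes tested only because of its reads in tumors, so that its separation is a description. The plot of all 7 transcripts by library shows how far apart the 4 libraries of a group lay. The DKO and TKO comparisons share the same 4 control livers and are therefore given side by side.

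**Figure D1:**
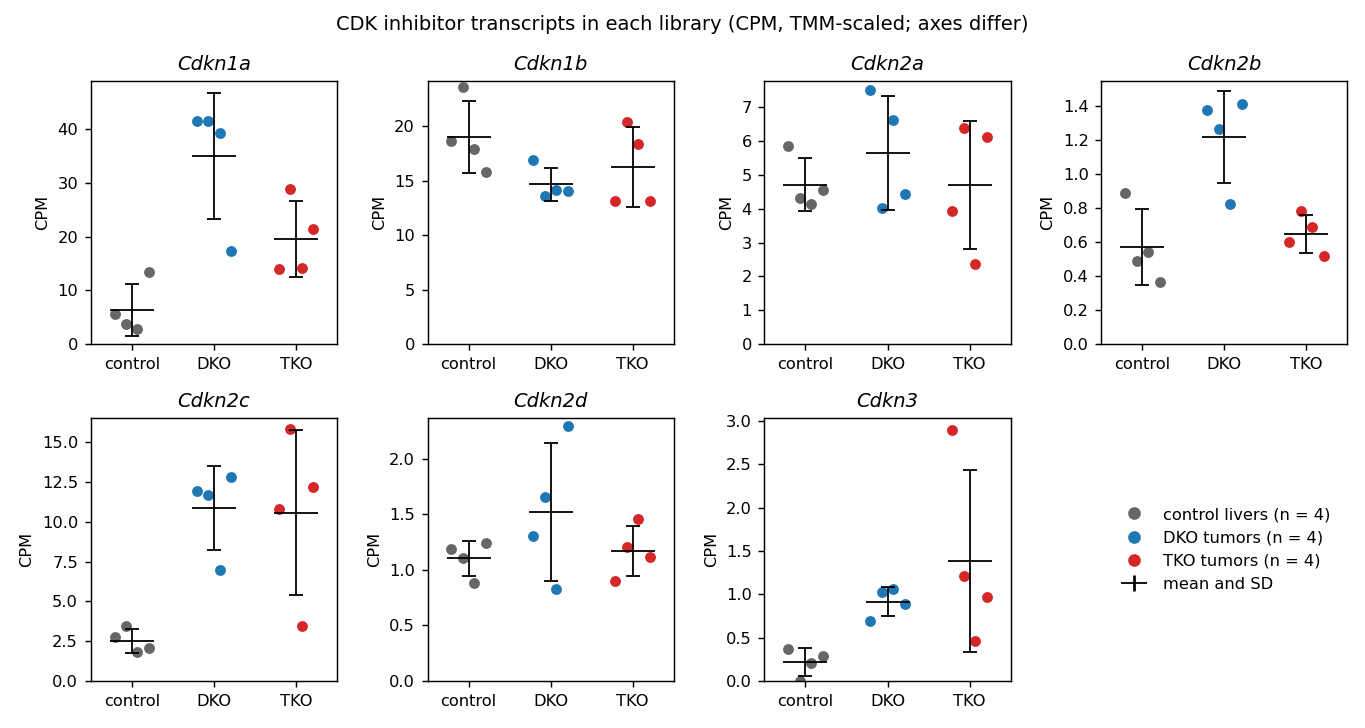
CPM (TMM-scaled) of each of the 7 transcripts in 4 control livers, 4 DKO tumors and 4 TKO tumors, 1 point per library, with the mean and SD as bars and a separate axis for each gene. Cdkn1a, Cdkn2c and Cdkn3 show no overlap between tumors and control livers, with control 4 (Cdkn1a, 13.5 CPM) and TKO 3 (Cdkn2c, 3.45 CPM) close to the other group.

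Cdkn1a lies at chr17:29227924-29237667 on mm9, the build of the deposited counts, on the plus strand (Entrez 12575). In control livers 1 to 4 its level was 5.56, 3.69, 2.91 and 13.5 CPM, from 75, 30, 43 and 185 reads. DKO tumors 1 to 4 had 41.5, 41.6, 39.3 and 17.4 CPM, and TKO tumors 13.9, 28.8, 14.1 and 21.5 CPM. The control livers themselves differed widely (CV 75.8%), and control 4 lay just under the lowest TKO tumor. Within the DKO tumors, 3 were nearly equal and DKO 4 lay far below them. The transcript was 5.40-fold higher in DKO tumors than in control livers (log2 fold change 2.43, SE 0.467), which edgeR's quasi-likelihood test called (adjusted p = 0.0389). In TKO tumors it was 3.02-fold higher (log2 fold change 1.60, SE 0.458), a difference that the same edgeR test did not call (adjusted p = 0.146).

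Without control 4 the log2 fold changes of Cdkn1a became 3.10 in DKO and 2.27 in TKO tumors, the largest shifts from leaving out any library. The call in DKO tumors held in 6 of 12 fits that left out 1 library each, with adjusted p values of edgeR's test between 0.0253 and 0.134. It was lost without control 1, 2 or 3 or DKO 1, 2 or 4.

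Cdkn1b (Entrez 12576, mm9 chr6:134870419-134875531, plus strand), the gene of p27, which keeps resting hepatocytes out of the cycle, was lower on average in the tumors, by a difference that was not called. Its levels were 15.8 to 23.6 CPM in control livers, 13.6 to 16.9 in DKO tumors and 13.1 to 20.4 in TKO tumors. Of the DKO tumors, 3 lay below every control liver, and the ranges overlapped. The log2 fold changes of −0.37 (SE 0.177) in DKO and −0.22 (SE 0.177) in TKO tumors were not called by edgeR (adjusted p = 0.226 and 0.569). Cdkn1c (p57), the imprinted member of the family, was low throughout, at 2.27 ± 0.360 CPM in control livers, 1.44 ± 1.17 in DKO and 1.62 ± 0.714 in TKO tumors, and was not called in any comparison (edgeR's adjusted p of 0.463 or more; DESeq2, 0 calls).

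Among the INK4 genes, Cdkn2c (Entrez 12580, mm9 chr4:109333481-109339794, minus strand) had the clearest difference. The p18INK4c transcript was at 2.74, 3.44, 1.83 and 2.05 CPM in control livers 1 to 4, from 27 to 37 reads each. DKO tumors 1 to 4 had 11.9, 11.7, 6.97 and 12.8 CPM. TKO tumors 1 to 4 had 10.8, 15.8, 3.45 and 12.2 CPM. All DKO tumors lay well above the control livers, whereas TKO 3 was level with control 2 and the other 3 TKO tumors were among the highest libraries. The 95% counting interval of TKO 3, 2.52 to 4.61 CPM, overlapped that of control 2, 2.29 to 4.97 CPM.

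The log2 fold change of Cdkn2c was 2.13 (SE 0.403) in DKO tumors, 4.36-fold, and was called by edgeR's quasi-likelihood test (adjusted p = 0.0376). It was 2.09 (SE 0.403) in TKO tumors, 4.25-fold, and was not called at 0.05 (edgeR's adjusted p = 0.0851). In TKO tumors only 1 of the 12 fits without 1 library called it, the one without TKO 3, the lowest tumor (2.38, edgeR's adjusted p = 0.00854), and the adjusted p ran up to 0.301 in the others. The call in DKO tumors held in 4 of 12 fits without 1 library, with edgeR's adjusted p between 0.00822 and 0.126, and was lost without any 1 of the 4 control livers, DKO 1, 2 or 4, or TKO 1.

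Cdkn2b (Entrez 12579, mm9 chr4:88952198-88956941, minus strand), a gene that TGF-beta signalling is known to induce, was counted with few reads, 4 to 24 per library. Its level was 0.889, 0.491, 0.542 and 0.366 CPM in control livers 1 to 4. In DKO tumors it was 1.38, 1.26, 0.827 and 1.41 CPM, and in TKO tumors 0.602, 0.781, 0.690 and 0.521 CPM. The minimum of edgeR's filter was reached by 1 control liver, 4 DKO and 2 TKO tumors. Cdkn2b thus entered the test only through the DKO tumors, where it was high, and its values are a description. Of the DKO tumors, 3 lay above all control livers and DKO 3 fell below control 1, and the TKO tumors lay within the control range. The log2 fold change was 1.07 (SE 0.340) in DKO tumors (edgeR's adjusted p = 0.0900) and 0.17 (SE 0.353) in TKO tumors (adjusted p = 0.867). Only limma voom with quality weights put the DKO difference under 0.05 (adjusted p = 0.0423).

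Cdkn2a (Entrez 12578, mm9 chr4:88920377-88940557, minus strand) lies next to Cdkn2b and encodes p16INK4a and, in another reading frame, p19ARF, which stabilises p53 through MDM2. The 3 annotated transcripts share 575 of 1170 exon bases (49.1%) and the 2 starts lie 12427 bases apart, so that counts per gene do not separate the products. Control livers 1 to 4 had 5.85, 4.30, 4.13 and 4.53 CPM, DKO tumors 7.51, 4.03, 6.62 and 4.42 CPM, and TKO tumors 3.92, 6.39, 2.38 and 6.11 CPM. The groups overlapped, with TKO 3 the lowest and DKO 1 the highest library. The log2 fold changes of 0.26 (95% interval −0.42 to 0.94) in DKO and −0.00 (−0.68 to 0.68) in TKO tumors were not called by edgeR (adjusted p = 0.646 and 0.998), and the sign of the TKO value turned with total counts in place of TMM. Reads of Cdkn2a were counted in every tumor, 31 to 112 per library.

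The other genes of the Cdkn2a and Cdkn2b neighbourhood were Mtap, a methionine salvage enzyme, and Dmrta1, a transcription factor gene. Mtap was at 21.7 ± 2.42 CPM in control livers, 28.6 ± 6.05 in DKO and 26.8 ± 8.79 in TKO tumors. Dmrta1 was at 2.55 ± 1.38, 0.662 ± 0.662 and 0.950 ± 0.477 CPM. Neither was called by edgeR's test (lowest adjusted p = 0.0935 in DKO and 0.265 in TKO tumors, both for Dmrta1), while DESeq2 called Dmrta1 lower in DKO tumors (adjusted p = 0.0308).

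Cdkn2d (Entrez 12581, mm9 chr9:21092907-21095653, minus strand), the gene of p19INK4d, was likewise low, with 9 to 39 reads per library. It ranged from 0.880 to 1.24 CPM in control livers, 0.827 to 2.30 in DKO tumors and 0.904 to 1.46 in TKO tumors, so that the groups overlapped. Its log2 fold changes were 0.46 (SE 0.331) in DKO and 0.08 (SE 0.335) in TKO tumors (edgeR's adjusted p = 0.423 and 0.934).

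Cdkn3 (Entrez 72391, mm9 chr14:47380216-47391200, plus strand) was close to the detection limit in control livers, with 5, 0, 3 and 4 reads, or 0.370, 0, 0.203 and 0.293 CPM. The library without a read, control 2, allows up to 0.369 CPM by 3 counts. DKO tumors 1 to 4 had 0.689, 1.03, 1.06 and 0.884 CPM, and TKO tumors 2.89, 1.21, 0.460 and 0.968 CPM. TKO 1, with 48 reads, was the highest library, and TKO 3, with 6 reads, lay next to control 1, with counting intervals of 0.169 to 1.00 and 0.120 to 0.864 CPM. No control liver reached the minimum of edgeR's filter for Cdkn3, against 3 DKO and 3 TKO tumors, so that it entered the test only through the tumors, where it was high, and its values are a description. The log2 fold change was 1.94 (SE 0.644) in DKO and 2.54 (SE 0.634) in TKO tumors. edgeR's test called neither (adjusted p = 0.10001 and 0.130), and DESeq2, run on all genes with at least 1 count, called both (adjusted p = 0.0460 and 0.0143). Over the 12 fits without 1 library, edgeR's adjusted p for TKO tumors ran from 0.0399, without TKO 3, to 0.339, and only the fit without TKO 3 called it.

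**Figure D2:**
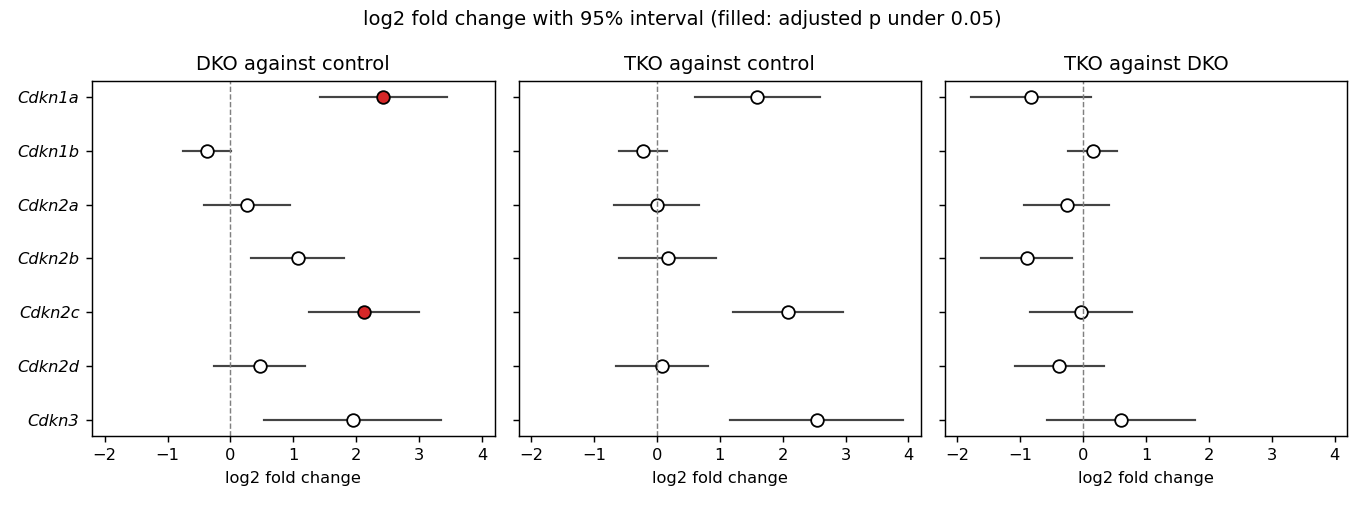
Log2 fold change of each of the 7 transcripts with its 95% interval from edgeR's fit, for DKO against control, TKO against control and TKO against DKO. Filled points mark an adjusted p under 0.05, which were Cdkn1a (2.43) and Cdkn2c (2.13) in DKO tumors.

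Counted together, edgeR's quasi-likelihood test called 2 of the 7 transcripts higher in DKO tumors and none lower, where 1.41% of all 13882 genes tested were called higher and 1.01% lower. In TKO tumors it called 0 of 7, where 0.0504% of all genes were called higher, with 3 of the 7 at an unadjusted p under 0.05, against 16.3% of all genes. In DKO tumors 4 of the 7 were under 0.05 unadjusted, against 23.98% of all genes. Cdkn2b and Cdkn3 were among these 4, and Cdkn3 was among the 3 in TKO tumors. Both genes entered edgeR's test only through groups where they were high, so that these counts are a description. DESeq2 called Cdkn1a, Cdkn2c and Cdkn3 in both comparisons, where it called 3.48% of 23783 genes higher in DKO and 1.22% in TKO tumors. These 23783 genes include genes with low counts that edgeR's filter removed, so that the shares by DESeq2 and edgeR have different bases. Without control 2 or control 3, edgeR made 0 calls in DKO tumors over all genes, with 2482 and 2560 genes at an unadjusted p under 0.05. These 2 control livers were closer to each other, with a chi-square per gene of 18.5, than any other pair of control livers (60.7 to 70.8). Their sample labels share the letter e, whereas the other control livers are labelled b and j. What the letters stand for is not given. The letters b, e and j also recur among the tumor labels, and a dependence between libraries that share a letter was not tested. The median log2 fold change of the 7 was 1.07 in DKO and 0.17 in TKO tumors, and over all genes it was 0.02 in both. With DKO and TKO tumors averaged against control livers, edgeR called Cdkn1a (log2 fold change 2.01, adjusted p = 0.0436) and Cdkn2c (2.11, adjusted p = 0.0405), where 1.25% of genes were called higher. Cdkn3 had 2.24 (edgeR's adjusted p = 0.0600). A two-sided exact permutation test of log2 CPM gave p = 0.0286 for Cdkn1a and Cdkn2c in DKO and in TKO tumors and p = 0.00404 over the 8 tumors. These are the smallest values that 4 against 4 and 8 against 4 libraries can give, and they restate that the values did not overlap.

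The comparison of TKO with DKO tumors asked whether the additional loss of Rb1 went with another level of the inhibitors. edgeR called 0 of the 7 transcripts, 1 of them having an unadjusted p under 0.05, and DESeq2 called 0. Over all genes edgeR called 0 as well (0%), with 1250 at an unadjusted p under 0.05, and DESeq2 56 of 23783 (0.235%). The gene with the low unadjusted p was Cdkn2b, whose 4 TKO tumors (0.521 to 0.781 CPM) all lay below the 4 DKO tumors (0.827 to 1.41 CPM), as was the case for 2.12% of all genes. Its log2 fold change was −0.90 (SE 0.332, edgeR's adjusted p = 0.498), and the exact permutation test gave p = 0.0286, the smallest possible. Since Cdkn2b entered the test only through the DKO tumors, where it was high, these values are a description. For Cdkn1a the log2 fold change was −0.84 (95% interval −1.79 to 0.12, edgeR's adjusted p = 0.585), and the DKO tumors other than DKO 4 lay above all TKO tumors. For Cdkn2c it was −0.04 (−0.85 to 0.77) and for Cdkn3 0.60 (−0.57 to 1.78). These intervals hold differences of more than 1.5-fold in both directions for Cdkn2c, and a p above the threshold does not show that the levels were alike.

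To compare the 7 transcripts with each other, CPM were divided by the exon length of each gene in kb. In control livers Cdkn1b (4.17 ± 0.723 CPM per kb) and Cdkn2a (4.02 ± 0.669) came first, followed by Cdkn1a (2.89 ± 2.19), and the ranges of these 3 overlapped from one to the next. Cdkn2c (0.936 ± 0.272), Cdkn2d (0.868 ± 0.125), Cdkn2b (0.411 ± 0.161) and Cdkn3 (0.199 ± 0.147) followed, with overlap between Cdkn2c and Cdkn2d and between Cdkn2b and Cdkn3. The control order thus had an upper group of Cdkn1b, Cdkn2a and Cdkn1a, by a narrow margin. The lowest control value of Cdkn1a, 1.31 CPM per kb, lay just above the highest of Cdkn2c, 1.28 CPM per kb. In DKO tumors Cdkn1a came first at 15.7 ± 5.28 CPM per kb, with no overlap with Cdkn2a (4.82 ± 1.44), Cdkn2c (4.04 ± 0.984) and Cdkn1b (3.22 ± 0.326), which overlapped in turn. In TKO tumors Cdkn1a again came first (8.81 ± 3.20), without overlap with Cdkn2a (4.01 ± 1.63), Cdkn2c (3.93 ± 1.94) and Cdkn1b (3.57 ± 0.815).

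Cdkn1a made up 12.2 to 38.8% of the summed level of the 7 in control livers, 33.9 to 57.3% in DKO tumors and 30.8 to 41.3% in TKO tumors. The share of Cdkn1b was 22.1 to 39.8% in control livers, 9.14 to 13.3% in DKO and 11.8 to 25.6% in TKO tumors. In summed level, the INK4 genes went from 6.24 ± 0.977 CPM per kb in control livers to 10.9 ± 1.52 in DKO and 9.34 ± 3.42 in TKO tumors, and Cdkn1a with Cdkn1b from 7.06 ± 1.80 to 19.0 ± 5.39 and 12.4 ± 3.66. The stacked plot shows that the summed level of TKO 3, 15.8 CPM per kb, was close to that of control 4, 15.7 CPM per kb.

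**Figure D3:**
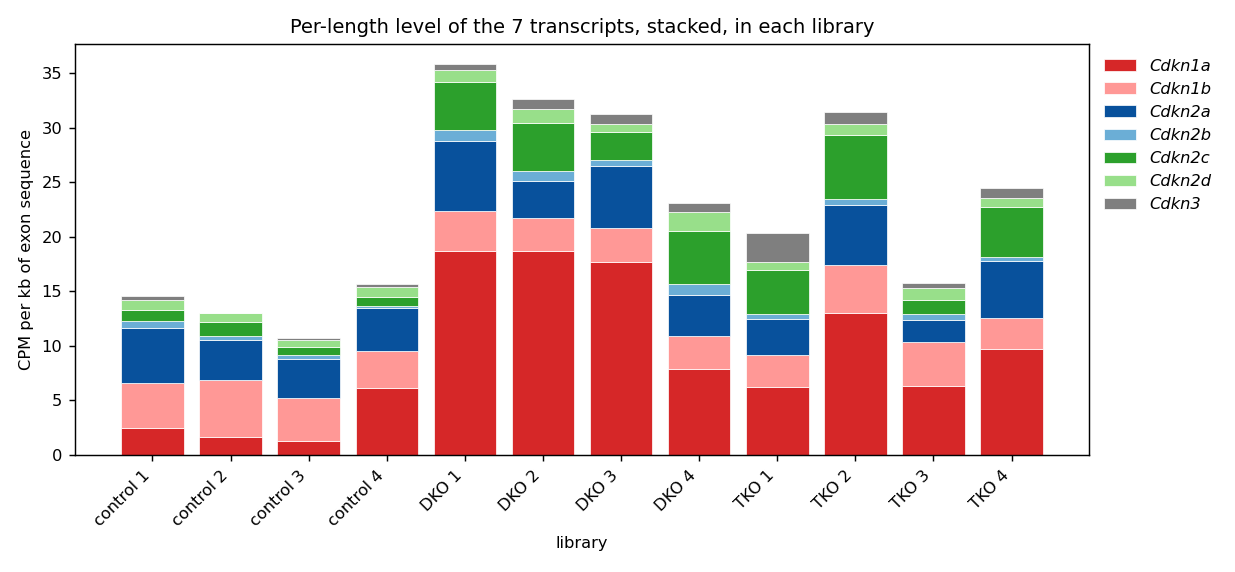
CPM per kb of exon sequence of the 7 transcripts, stacked, for each of the 12 libraries, with red for CIP/KIP, blue and green for INK4 and grey for Cdkn3. The sum is 10.7 to 15.7 in control livers, 23.1 to 35.9 in DKO and 15.8 to 31.4 in TKO tumors, with Cdkn1a the widest segment in every tumor.

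The kinases and cyclins that these proteins bind formed a list of 11 genes, of which 10 could be tested. edgeR called 0 in DKO tumors, with 3 at an unadjusted p under 0.05, and 0 in TKO tumors, with 6. For these unadjusted counts and those of the lists that follow, the shares over all genes are the 23.98% in DKO and 16.3% in TKO tumors given above. For genes called higher, edgeR's shares over all genes were 1.41% in DKO and 0.0504% in TKO tumors. DESeq2's were 3.48% and 1.22% of its 23783 genes. The median log2 fold change was 0.50 in DKO and 0.74 in TKO tumors. DESeq2 called Cdk1, Cdk6 and Ccna2 in DKO and Cdk2 and Cdk4 in TKO tumors, all higher. Cdk4, the main INK4 partner, was at 36.2 ± 4.28 CPM in control livers, 32.8 ± 2.80 in DKO tumors and 54.4 ± 7.27 in TKO tumors. Its log2 fold change in TKO against DKO tumors was 0.73 (SE 0.132). The adjusted p was 0.281 by edgeR and 0.00161 by DESeq2. Over all genes in this comparison, edgeR called 0% and DESeq2 0.235% of 23783 in either direction. Ccna2 (cyclin A2), at 1.97 ± 1.13, 10.6 ± 8.06 and 6.70 ± 3.64 CPM, had the lowest adjusted p of the list by edgeR in DKO tumors (0.0521).

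The list for degradation of p21 and p27 (9 genes, with Skp2 and Cul4a) gave 0 calls by edgeR in DKO tumors (1 gene at an unadjusted p under 0.05) and in TKO tumors (2 genes), and its median log2 fold change was 0.11 in both. DESeq2 called Cul4a, a ubiquitin ligase scaffold, lower in both, at 104 ± 9.62 CPM in control livers, 81.0 ± 7.36 in DKO and 78.9 ± 6.50 in TKO tumors. Of 23783 genes, DESeq2 called 690 lower in DKO and 217 lower in TKO tumors. Of 26 known regulators of inhibitor genes, edgeR called 2 higher in DKO tumors and none lower. Ets2, a transcription factor known to activate p16INK4a, rose from 27.3 ± 5.15 to 67.6 ± 21.7 CPM (log2 fold change 1.30, SE 0.255, edgeR's adjusted p = 0.0409). Klf6, a zinc finger factor known to activate Cdkn1a, rose from 21.4 ± 5.94 to 50.9 ± 14.3 CPM (1.25, SE 0.245, edgeR's adjusted p = 0.0411). In DKO tumors 5 of the 26 had an unadjusted p under 0.05, and DESeq2 called Ezh2, Ets2 and Klf6 higher. In TKO tumors edgeR called 0 of the 26, with 6 at an unadjusted p under 0.05. There DESeq2 called Ezh2, Ets2, Smad3 and Trp53 higher. The median log2 fold change of the 26 was 0.11 in DKO and 0.05 in TKO tumors.

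Of 21 other p53 targets, edgeR called 1 in DKO tumors, where 6 had an unadjusted p under 0.05 and DESeq2 called Btg2, Tnfrsf10b and Polk. In TKO tumors edgeR called 0, where 4 had an unadjusted p under 0.05 and DESeq2 called 0. The gene called by edgeR was Btg2, an antiproliferative transcript, which rose from 8.79 ± 3.05 CPM in control livers to 60.5 ± 26.1 in DKO tumors (log2 fold change 2.78, SE 0.545, edgeR's adjusted p = 0.0412) and was at 23.6 ± 20.1 CPM in TKO tumors. Mdm2, the p53 feedback target, was at 23.0 ± 1.49, 24.7 ± 2.31 and 23.8 ± 5.23 CPM, and neither difference was called by edgeR (adjusted p = 0.696 and 0.900). The median log2 fold change of the 21 targets was 0.28 in DKO and 0.10 in TKO tumors.

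Mitotic transcripts were measured beside the inhibitors, and their part in the results for Cdkn1a, Cdkn2c and Cdkn3 was not tested. All 25 genes of a mitotic list had positive log2 fold changes in both tumor groups, with medians of 1.80 in DKO and 1.31 in TKO tumors. edgeR called Mki67, Bub1b, Plk1 and Prc1 in DKO tumors, where 21 of the 25 had an unadjusted p under 0.05 and DESeq2 called 19. In TKO tumors edgeR called 0, where 19 had an unadjusted p under 0.05 and DESeq2 called 4. The mean log2 CPM over the list was −0.14 to 0.68 in control livers, 1.14 to 2.74 in DKO and 0.43 to 2.18 in TKO tumors. TKO 3, the tumor with the lowest Cdkn2c and Cdkn3, was the tumor at 0.43, within the range of the control livers.

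Over the 8 tumors, Pearson's r with this mean was 0.50 for Cdkn1a, 0.54 for Cdkn2c and 0.51 for Cdkn3 (exact permutation test, adjusted p = 0.362 for each over 7 relations), and Spearman's rho was 0.43, −0.05 and 0.43 (adjusted permutation p = 0.698, 0.935 and 0.698). Without DKO 2 and TKO 3, the tumors farthest from the median, r was −0.07, −0.25 and 0.41. None of the 7 relations passed, and 4 tumors per genotype were too few for a value within each. The plot against mitotic transcripts shows 7 of the 8 tumors to the right of all control livers, and TKO 3 among them.

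**Figure D4:**
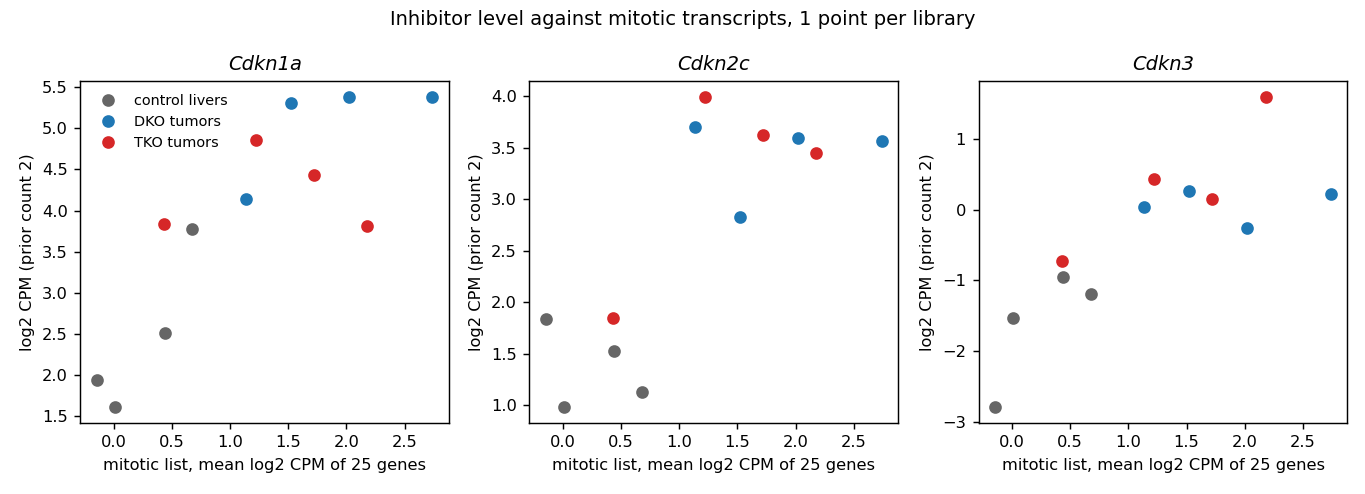
Log2 CPM (prior count 2) of Cdkn1a, Cdkn2c and Cdkn3 against the mean log2 CPM of 25 mitotic genes, 1 point per library for 4 control livers, 4 DKO and 4 TKO tumors. TKO 3, at 0.43 on the horizontal axis, lies beside the control livers for Cdkn2c and just above them for Cdkn3.

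Over all 12 libraries, the gene whose log2 CPM was most like that of Cdkn1a was the mitotic kinase gene Plk1 (Pearson's r = 0.93), which had only 4 to 62 reads per library, followed by Tanc1 and Rps6kc1. Cdkn2c was most like Prr36 (0.97), Pck2 (0.96) and Samd4 (0.96), and Cdkn3 most like Gm5620 (0.97) and Rangap1 (0.96), the gene of the RAN GTPase activator. Cdkn1b was most like Zc3h6 (0.93), Cdkn2a most like F13a1 (0.90), Cdkn2b most like Vps39 (0.93) and Cdkn2d most like D6Wsu163e (0.92). These values describe 12 libraries that share 3 groups, and the differences between groups enter each of them.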

How the data were processed

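Poly(A) RNA of 4 control livers, 4 DKO tumors and 4 TKO tumors was sequenced as 40-base SOLiD reads. The authors mapped the reads to mm9 with BWA and counted them per Entrez gene with featureCounts, and deposited these raw counts without normalization. Versions, strand setting and treatment of reads with several positions are not given in the sources used here, so that reads shared with overlapping genes or near-identical copies may be misassigned. Symbols were taken from RefSeq for 24191 of 26301 genes (99.4% of counts), and mm9 positions and exon lengths from GENCODE vM1.

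edgeR 4.0.16 (R 4.3.3) was used with TMM, filterByExpr (13882 genes kept, all 7 members among them), 1 mean per group over all 12 libraries and the quasi-likelihood test, adjusted by Benjamini-Hochberg over all genes tested at 0.05. DESeq2 1.42.0, voom in limma 3.58.1, other scalings, filters and covariates, and fits without each library were alternatives. Single genes were also compared by exact permutation of libraries. The fit was tested on simulated data. Counting intervals (95%, exact Poisson) and the floor of 3 counts cover counting error only. Groups and replicate numbers come from the sample titles. The study's methods give 4 livers per condition.

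Members, gene lists and the mitotic list were written from textbook knowledge with earlier results of these data known, and the GC and TATA boxes were added after the data were seen. The named genes are all 7 members, list genes that were called or led a list, and the genes most like each member. Mtap and Dmrta1, Cdkn1c and the deleted genes were fixed with the lists, whereas Cul4a, Cdk4 and Mdm2 were picked from their lists after their values were seen. Promoter windows are RefSeq's on GRCm38.p6 and were not compared by position with the mm9 coordinates.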

Additional observations from a re-analysis of the deposited data

Results flagged for a closer look

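Cdkn1a in DKO 4 stood apart from the other DKO tumors. Its level was 17.43 CPM, against 39.3 to 41.6 CPM in the other 3, and the gap took 0.905 of the whole range of the 4 tumors, above Dixon's 95% critical value for sets of this size. It was the 1 value so marked among 21 sets of 4 libraries (7 genes in 3 groups), and chance marks about 1 in 20. Without DKO 4 the log2 fold change of Cdkn1a in DKO tumors against control livers was 2.66 in place of 2.43, with an adjusted p of 0.0517 by edgeR's quasi-likelihood test.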

How the results depend on the processing

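The 2 inhibitors called in DKO tumors fell to 0 with the mean level of Y-linked genes as a covariate (0 calls over all genes), although all 12 libraries express these genes and the log2 fold changes stayed at 2.03 for Cdkn1a and 2.00 for Cdkn2c, and to 0 to 2 when each library was left out. The Y-linked mean was 4.51 to 4.99 log2 CPM in control livers and 3.94 to 4.48 in DKO tumors. These ranges did not overlap, so that this fit cannot fully separate the covariate from the comparison. TKO tumors, at 3.86 to 4.76, overlapped the control livers. In TKO tumors, with 0 called, the count was 1 at an adjusted p under 0.1, 3 with DESeq2, 1 with voom and quality weights, and 0 to 2 without single libraries, the 2 being Cdkn2c and Cdkn3 without TKO 3. Over all tumors the 2 called became 1 under total counts, 0 with the Y-linked covariate and 0 to 3 without single libraries. TKO against DKO gave 0 throughout. Total counts in place of TMM moved the median log2 fold change of all genes from 0.02 to 0.17 in TKO tumors, and the split of higher to lower calls in DKO tumors from 196 and 140 to 52 and 7. Over all genes, DESeq2 called 828 higher and 690 lower in DKO and 290 higher and 217 lower in TKO tumors, where edgeR called 7 higher and 5 lower in TKO tumors. The sign of Cdkn2a in TKO tumors (−0.00) turned to 0.14 with total counts, 0.0074 without a filter, 0.0023 with at least 10 counts in every library, 0.16 with the covariate, and ran from −0.19 to 0.21 without single libraries. Without single libraries, Cdkn2b in TKO tumors ran from −0.0020 to 0.47 and Cdkn2d from −0.0396 to 0.18. Against DKO, Cdkn2c turned to 0.0706 with total counts and ran from −0.30 to 0.25 without single libraries, and Cdkn3 ran from −0.0572 to 0.88. The causes were not tested. Among 258 fold changes under other settings, 240 kept direction and side of the threshold, and 294 of 336 without single libraries did. The replicate block left the counts at 2 in DKO, 0 in TKO and 2 over all tumors. Same-numbered libraries of different groups are different mice. Their deviations correlated at over 0.1 in 0 of 4 pairs of control with DKO, 2 of 4 of control with TKO and 3 of 4 of DKO with TKO (−0.17 to 0.37 in all), and not every library correlated best with its own number, so the numbers were not taken as pairs. The fit of only the libraries compared could not be run for all tumors against control, since it holds every library. With 0 to 24 reads, depth limits Cdkn3 in control livers and Cdkn2b.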
